A study of Mus musculus with 6 samples.

Results

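The MHC class I genes described here are 9 heavy chain genes of the mouse *H2* complex, *H2-K1*, *H2-D1*, *H2-Q4*, *H2-Q6*, *H2-Q7*, *H2-T22*, *H2-T23*, *H2-T24* and *H2-M3*, and the light chain gene *B2m*. They were taken by gene symbol from the deposited table of 55426 genes, and all 10 were found, each in 1 row. The table gives TPM, a unit that allows for transcript length and has a common total in all libraries, for the abdominal aortas of 3 control and 3 Prdm16SMKO male mice. Prdm16SMKO mice carried floxed *Prdm16* alleles and *Myh11*-CreERT2, a tamoxifen-inducible Cre recombinase driven by a vascular smooth muscle cell (VSMC) promoter and placed on the Y chromosome. The study describes its controls as wild-type mice with *Myh11*-CreERT2, so both groups shared the Cre, and the strain is labelled C57BL/6J. Tamoxifen was given at 75 mg/kg/day for 5 days to mice 8 to 10 weeks old, in a protocol that does not separate the groups, and RNA was taken 2 weeks later from aortas without induced injury. The labels number the replicates and do not tie each to an animal. The Cre acts in VSMCs, while the RNA came from all cells of the abdominal aorta. In such bulk RNA, more cells of a type and more RNA per cell cannot be told apart.

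MHC class I molecules display peptides from inside the cell on its surface, where CD8 T cells and natural killer cells inspect them. Each molecule is a heavy chain paired with β2-microglobulin, the product of *B2m*. *H2-K1* and *H2-D1* encode the classical heavy chains, which are made by nearly every nucleated cell, and the *H2-Q*, *H2-T* and *H2-M* genes encode non-classical heavy chains with narrower roles. Peptides are cut by the proteasome, whose catalytic subunits can be replaced by immunoproteasome subunits, and are carried into the endoplasmic reticulum by the TAP transporter for loading. Interferons raise the transcription of most of these genes through IRF factors and through the transactivator NLRC5, which acts on a conserved promoter module. In the resting vessel wall, endothelial cells, fibroblasts, VSMCs and resident macrophages can all carry class I molecules.

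The heavy chain genes lie on chromosome 17 of GRCm38 (GENCODE M21), from *H2-K1* (ENSMUSG00000061232, 33996017 to 34000347) to *H2-M3* (ENSMUSG00000016206, 37270220 to 37274484), and *B2m* (ENSMUSG00000060802) lies on chromosome 2 at 122147686 to 122153083. Promoters from RefSeq (GRCm38.p6), 250 bases before to 50 bases after each start, matched 9 of the 10 members by symbol, all but *H2-T24*. They are shown as a description of the members. The heavy chains are paralogs, so their promoters can be alike through common origin and are not independent of one another. Whether the shared letters bear on the fold changes was not tested. The κB palindrome, with its middle base free, stood in 3 of the 9 promoters, against 0.0487% of all 32851 promoters, with both strands searched. A run of 10 letters downstream of it, looked for after the promoters had been seen, stood in 6 of the 9 (*H2-M3* and the 5 genes below) against 0.155% of all. Capitals mark the κB palindrome, where it is present, and then the 10-letter run in the best ungapped match to the *H2-K1* stretch, written 5′ to 3′ on the strand of the gene, with *H2-K1* on the minus strand at chr17:34000423-34000468 and the others on the plus strand.
H2-K1: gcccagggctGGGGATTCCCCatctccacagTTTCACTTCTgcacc
H2-D1: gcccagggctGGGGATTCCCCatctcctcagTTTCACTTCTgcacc
H2-Q4: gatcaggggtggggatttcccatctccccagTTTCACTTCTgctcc
H2-Q6: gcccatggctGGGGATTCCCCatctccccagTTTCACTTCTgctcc
H2-Q7: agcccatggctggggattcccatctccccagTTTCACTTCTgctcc
The *H2-D1* stretch (chr17:35262913-35262958) differed from that of *H2-K1* at 1 of 46 bases, *H2-Q6* (chr17:35424667-35424712) at 3, *H2-Q4* (chr17:35379433-35379478) at 6 and *H2-Q7* (chr17:35439011-35439056) at 13, without gaps. After its first base the *H2-Q7* stretch reads as that of *H2-Q6* with 1 C fewer, which shifts the bases before it. Its 13 thus does not rank it as the least alike.

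A second arrangement, TGACG followed by ATTGG with 19 or 20 bases between them, letters found in the X2 and Y boxes of class I promoters, was also looked for after the promoters had been seen. It was present in 5 of the 9 member promoters and in 0.131% of all promoters, on either strand, and its ATTGG is the reverse complement of the CCAAT box, which alone was present in all 9 and in 37.4% of all promoters. TGACG alone was in 7 of the 9 and in 20.8% of all. Capitals mark the TGACG and the ATTGG, in *H2-K1* (minus strand, chr17:34000351-34000396), *H2-D1* (plus, chr17:35262985-35263030), *H2-Q7* (plus, chr17:35439083-35439127), *H2-M3* (plus, chr17:37270180-37270225) and *B2m* (plus, chr2:122147601-122147646).
H2-K1: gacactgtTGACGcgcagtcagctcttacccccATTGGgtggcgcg
H2-D1: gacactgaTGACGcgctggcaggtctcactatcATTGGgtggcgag
H2-Q7: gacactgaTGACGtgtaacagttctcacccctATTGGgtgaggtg
H2-M3: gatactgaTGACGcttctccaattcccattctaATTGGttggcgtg
B2m: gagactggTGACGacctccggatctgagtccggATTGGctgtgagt
The core of an interferon-stimulated response element, TTTC repeated with any 2 bases between, stood in the promoters of *H2-T22* (minus strand, chr17:36042909-36042948), *H2-T23* (minus, chr17:36032801-36032840) and *B2m* (plus, chr2:122147533-122147572, where it reads on the opposite strand), that is in 3 of the 9 against 3.44% of all promoters. Capitals mark it.
H2-T22: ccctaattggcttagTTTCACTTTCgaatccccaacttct
H2-T23: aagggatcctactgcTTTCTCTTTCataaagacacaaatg
B2m: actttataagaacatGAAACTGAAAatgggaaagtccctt
These matches describe letters and do not show binding of any factor.

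The heavy chains are paralogs, and the longest complete coding sequences of the 9 genes were 65.9% to 95.4% identical over 36 pairs, with a median of 75.6%. *H2-Q6* and *H2-Q7* were the closest pair. Reads of 151 bases can still be told apart in most places, since a window of that length in the protein-coding transcripts was shared exactly with another gene in 8.14% of windows of *H2-Q7*, 5.94% of *H2-Q6*, 1.49% of *H2-D1*, 0.756% of *H2-T23* and 0.722% of *H2-T22*. No such window of *H2-K1*, *H2-Q4*, *H2-T24*, *H2-M3* or *B2m* was shared. The split of reads between *H2-Q6* and *H2-Q7* is thus less certain than their sum. Neither *H2-Q8* nor *H2-Q9* had a row. Whether reads from such genes entered the values of *H2-Q6* and *H2-Q7*, and thus their sum, was not tested.

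The comparison asked whether loss of *Prdm16* in VSMCs changed gene expression in an uninjured aorta. Expression was compared as log2(TPM + 0.5) by limma's moderated test in the 15775 genes that averaged 0.5 TPM or more, with Benjamini-Hochberg adjustment over all of them, and called genes are those whose adjusted p was under 0.05. Fold changes on this scale understate the change of genes with low TPM. The targeted gene, *Prdm16*, was at 30.8 to 36.8 TPM in control and 14.8 to 27.7 TPM in Prdm16SMKO libraries (log2 fold change −0.70, limma adjusted p = 0.376). The number of reads behind a TPM value is unknown, so no counting error is given, and 45S ribosomal RNA transcripts took 15.6% to 31.4% and mitochondrial transcripts 15.8% to 27.4% of the TPM of a library. Limma's p-values weigh a difference against the spread among these 6 libraries, with each gene's variance drawn toward a trend over all tested genes. An exact two-sided permutation test of 3 against 3 cannot go below 0.1.

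All 10 class I genes passed the expression minimum and all had a positive log2 fold change, as did 54.2% of all tested genes, with a median of 0.71 against 0.02. Of the 10, *H2-K1*, *H2-Q4*, *H2-Q6* and *H2-Q7* rose at an adjusted p under 0.05 (limma), where 0.355% of all tested genes were called and 0.184% were called as higher. An unadjusted p under 0.05 was reached by 9 of 10, all higher, where 4.88% of all genes were higher at that level and 8.74% changed in either direction. In these same 9, every Prdm16SMKO library lay above every control library, which was so for 7.02% of all genes, and *H2-M3* was the exception in both counts. These shares of all genes are also the background for the counts over all 6 libraries in the lists below. Every call depended on each control library, since leaving out control replicate 1, 2 or 3 left 0 class I genes called by limma. In these fits 0.108%, 0.0316% and 0.107% of all genes were called. At an unadjusted p under 0.05 there were 6, 9 and 5 of the 10 in these fits, and the share of all genes at that level is not given for them. Without Prdm16SMKO replicate 1, 2 or 3 there were 2, 1 and 3 called, where 0.391%, 0.178% and 0.247% of all genes were. All 10 fold changes stayed positive in each of these fits, and their median ran from 0.52, without control replicate 3, to 0.84, without control replicate 2.

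**Figure D1:**
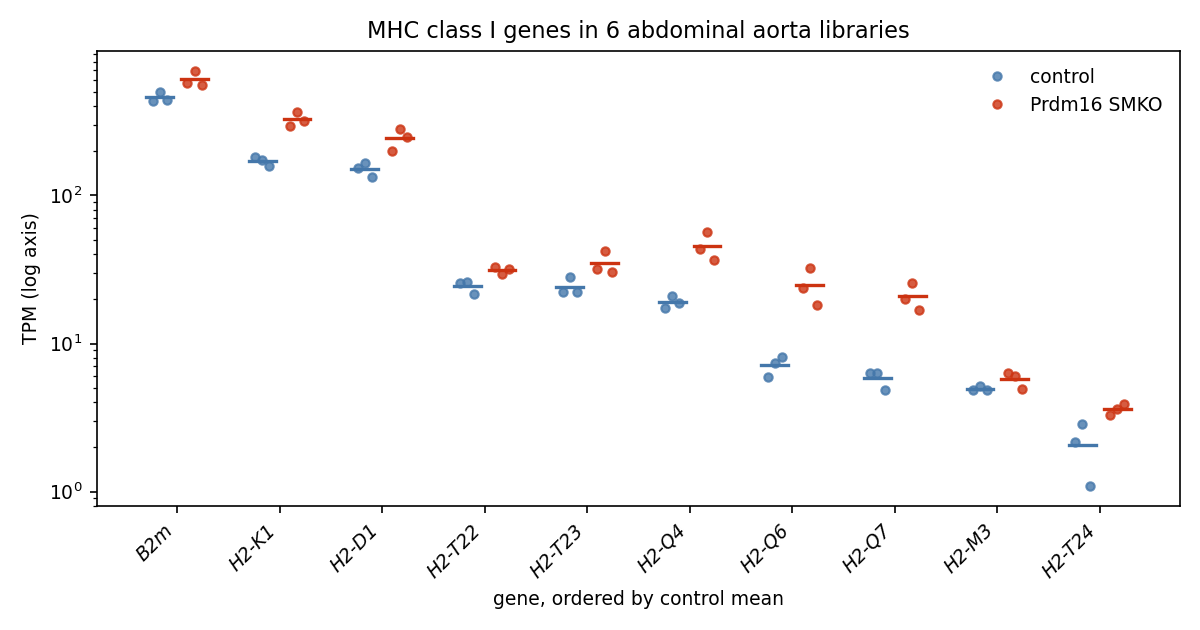
TPM on a log axis of the 10 class I genes in each of 3 control (blue) and 3 Prdm16SMKO (red) libraries, ordered by control mean, with the bars at the group means. The red points lie above the blue points in every gene except *H2-M3*, and the gap is widest for *H2-Q6* and *H2-Q7*.

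The classical heavy chains were the most abundant. *H2-K1*, whose product presents peptides to CD8 T cells, had 182, 174 and 159 TPM in control and 296, 365 and 319 TPM in Prdm16SMKO replicates 1, 2 and 3. The lowest Prdm16SMKO library was far above the highest control library. Its mean rose from 172 ± 11.9 to 327 ± 34.9 TPM (SD, n = 3 each), 1.90-fold, with a log2 fold change of 0.92 (95% interval 0.59 to 1.26, limma adjusted p = 0.0490). The call of *H2-K1* was the nearest to the threshold and was lost when any 1 library was left out, to adjusted p-values of 0.0777 to 0.190 at log2 fold changes of 0.84 to 0.99.

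*H2-D1*, the other classical heavy chain gene of this haplotype (ENSMUSG00000073411, chromosome 17, 35262730 to 35267499), was at 153, 166 and 134 TPM in control and at 199, 279 and 249 TPM in Prdm16SMKO replicates 1, 2 and 3. The groups did not overlap, and Prdm16SMKO replicate 1 was the nearest to the controls. The mean was 151 ± 16.2 TPM in control and 242 ± 40.4 TPM in Prdm16SMKO mice (SD, n = 3 each), 1.61-fold, with a log2 fold change of 0.67 (95% interval 0.28 to 1.07, limma adjusted p = 0.225). With limma's array weights, which count noisier libraries less, its adjusted p was 0.0323, and over all 16 alternatives it ran up to 0.567.

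The *H2-Q* genes, from the part of the complex that encodes Qa-2 and related non-classical molecules, showed the largest fold changes of the 10. *H2-Q7* (ENSMUSG00000060550, chromosome 17, 35439155 to 35443773) had 6.29, 6.30 and 4.88 TPM in control and 19.99, 25.6 and 16.7 TPM in Prdm16SMKO replicates 1, 2 and 3. The lowest Prdm16SMKO library was far above all controls. The mean rose from 5.82 ± 0.817 to 20.8 ± 4.52 TPM (SD, n = 3 each), 3.57-fold, with a log2 fold change of 1.74 (95% interval 1.28 to 2.20, limma adjusted p = 0.0159). Its adjusted p passed the threshold without any 1 Prdm16SMKO library and missed it without any 1 control library, with 0.107 as the highest value.

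*H2-Q6* (ENSMUSG00000073409, chromosome 17, 35424850 to 35430055), the closest paralog of *H2-Q7*, was at 5.96, 7.40 and 8.12 TPM in control and at 23.8, 32.5 and 18.2 TPM in Prdm16SMKO replicates 1, 2 and 3. Every Prdm16SMKO library was above the highest control library by a wide margin. The mean rose from 7.16 ± 1.10 to 24.8 ± 7.24 TPM (SD, n = 3 each), 3.47-fold, with a log2 fold change of 1.696 (95% interval 1.17 to 2.22, limma adjusted p = 0.0265). Left-out libraries took its adjusted p from 0.0197 to 0.120, and it missed the threshold without any 1 control library or Prdm16SMKO replicate 2.

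*H2-Q4* (ENSMUSG00000035929, chromosome 17, 35379617 to 35385290), which encodes a Qb-1 heavy chain, was at 17.3, 20.9 and 18.8 TPM in control and at 43.2, 56.3 and 36.5 TPM in Prdm16SMKO replicates 1, 2 and 3. The groups were separated, with controls close together and Prdm16SMKO replicate 2 highest. The mean rose from 19.02 ± 1.80 to 45.3 ± 10.04 TPM (SD, n = 3 each), 2.38-fold, with a log2 fold change of 1.21 (95% interval 0.79 to 1.64, limma adjusted p = 0.0416). Of the 6 fits that left out 1 library, its call was kept in the 1 without Prdm16SMKO replicate 3 (limma adjusted p = 0.0438), and the adjusted p of the others reached up to 0.182.

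The *H2-T* genes had smaller differences, and none of the 3 was called by limma, although all 3 had an unadjusted p under 0.05. *H2-T23*, which encodes Qa-1, the ligand of the CD94/NKG2A receptor, was at 22.4, 28.1 and 22.2 TPM in control and at 31.8, 42.2 and 30.3 TPM in Prdm16SMKO replicates 1, 2 and 3. The lowest Prdm16SMKO library exceeded the highest control library, control replicate 2, by a small margin. The log2 fold change was 0.50 (95% interval 0.09 to 0.92, limma adjusted p = 0.453).

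*H2-T22*, whose product is recognized by a set of γδ T cells, was at 25.6, 26.1 and 21.7 TPM in control and at 32.9, 29.3 and 32.1 TPM in Prdm16SMKO replicates 1, 2 and 3. Prdm16SMKO replicate 2, the highest of its group in 7 of the 10 members, was the lowest of its group for this gene. Its log2 fold change was 0.36 (95% interval 0.02 to 0.70, limma adjusted p = 0.540).

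*H2-T24*, the least abundant member, was at 2.18, 2.87 and 1.10 TPM in control and at 3.30, 3.62 and 3.91 TPM in Prdm16SMKO replicates 1, 2 and 3. Control replicate 3 was well below the other controls, and the interval was the widest of the 10. The log2 fold change was 0.75 (95% interval 0.08 to 1.42, limma adjusted p = 0.501), and it was 0.45 without control replicate 3 and 0.99 without control replicate 2.

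*H2-M3*, which presents N-formylated peptides, was at 4.82, 5.16 and 4.82 TPM in control and at 6.37, 5.99 and 4.95 TPM in Prdm16SMKO replicates 1, 2 and 3. Prdm16SMKO replicate 3 lay among the controls, so the groups overlapped. The log2 fold change was 0.20, and its 95% interval of −0.21 to 0.61 includes 0 (limma adjusted p = 0.879). A change of the size seen in *H2-Q6* or *H2-Q7* lies outside this interval.

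*B2m*, the light chain gene, was the most abundant member, at 435, 497 and 443 TPM in control and 574, 687 and 561 TPM in Prdm16SMKO replicates 1, 2 and 3. The groups did not overlap. The mean was 459 ± 33.7 TPM in control and 607 ± 69.3 TPM in Prdm16SMKO mice (SD, n = 3 each), 1.32-fold, with a log2 fold change of 0.40 (95% interval 0.05 to 0.75, limma adjusted p = 0.489). The lowest adjusted p of *B2m* over the alternatives was 0.0609.

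**Figure D2:**
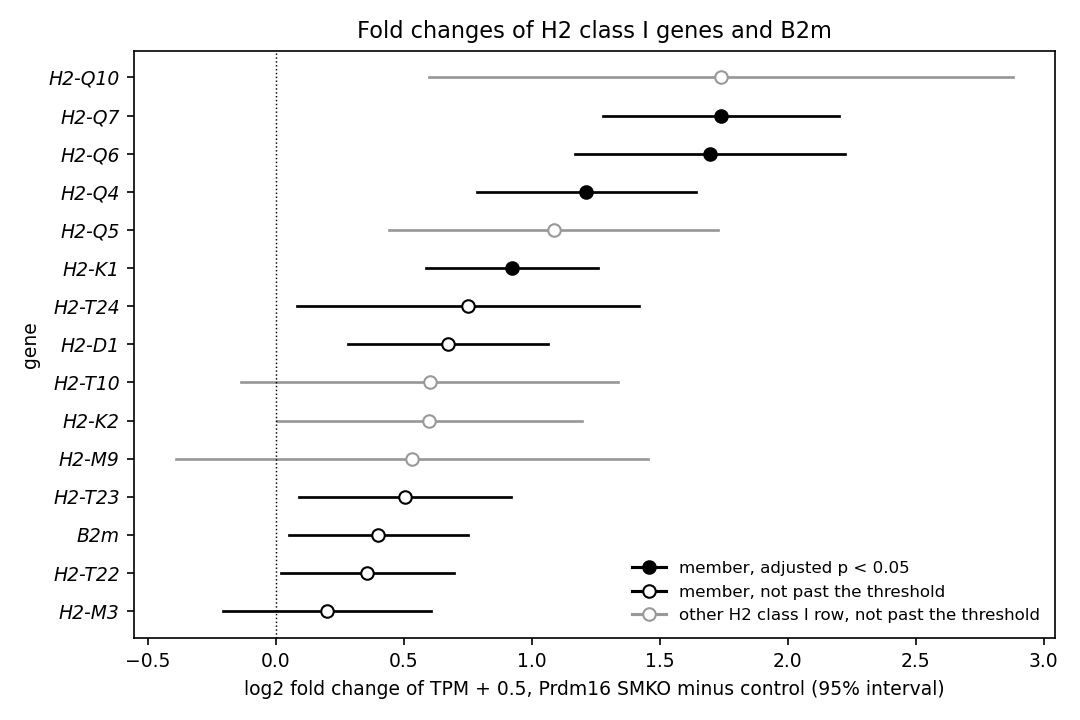
Log2 fold changes of TPM + 0.5, Prdm16SMKO minus control, with 95% intervals from limma, for the 10 members (black) and the 5 other *H2* class I rows tested (gray), with filled points for an adjusted p under 0.05. The 4 filled points are *H2-Q7*, *H2-Q6*, *H2-Q4* and *H2-K1*, and the interval of *H2-M3* crosses 0.

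In control aortas the order of TPM was *B2m*, *H2-K1*, *H2-D1*, *H2-T22*, *H2-T23*, *H2-Q4*, *H2-Q6*, *H2-Q7*, *H2-M3* and *H2-T24*. The ranges of *H2-K1* and *H2-D1*, of *H2-T22* and *H2-T23*, of *H2-Q6* and *H2-Q7*, and of *H2-Q7* and *H2-M3* overlapped among the 3 control libraries, and those of the other neighbors did not. In Prdm16SMKO aortas *H2-Q4* (45.3 TPM) stood before *H2-T23* (34.8 TPM) and *H2-T22* (31.4 TPM), though its range overlapped that of *H2-T23*. *H2-K1* and *H2-D1* no longer overlapped in that group, and neither did *H2-Q7* and *H2-M3*.

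Summed over the 9 heavy chain genes, the TPM was 419, 438 and 374 in control and 657, 840 and 711 in Prdm16SMKO replicates 1, 2 and 3. The mean of the sum was 410 ± 32.6 TPM in control and 736 ± 94.0 TPM in Prdm16SMKO mice (SD, n = 3 each), 1.79-fold. No test was made of this sum, since its members were chosen with results of these data known. *H2-K1* and *H2-D1* made up 77.9% to 79.8% of the sum in control and 75.4% to 79.9% in Prdm16SMKO libraries, ranges that overlapped. The share of *H2-Q4*, *H2-Q6* and *H2-Q7* was 7.06%, 7.91% and 8.499% in control and 13.3%, 13.6% and 10.05% in Prdm16SMKO replicates 1, 2 and 3. The share of *H2-T22*, *H2-T23* and *H2-T24* ran the other way, from 11.98% to 13.04% in control and from 8.95% to 10.35% in Prdm16SMKO libraries. The *H2-T* genes thus made up less of the heavy chain TPM in each Prdm16SMKO library while their own summed TPM was 66.3 to 75.2, against 45.04 to 57.1 in control.

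Ratios within a library do not depend on the scaling of that library. The heavy chain sum over *B2m* was 0.962, 0.880 and 0.844 in control and 1.14, 1.22 and 1.27 in Prdm16SMKO replicates 1, 2 and 3, so heavy chain transcripts passed *B2m* in each Prdm16SMKO library and in no control library. *H2-K1* over *H2-D1* was 1.19, 1.05 and 1.18 in control and 1.49, 1.31 and 1.28 in Prdm16SMKO replicates 1, 2 and 3. *H2-Q7* over *H2-K1* was 0.0308 to 0.0361 in control and 0.0523 to 0.0703 in Prdm16SMKO libraries. *H2-Q6* over *H2-K1* was 0.0328 to 0.0512 in control and 0.0568 to 0.0891 in Prdm16SMKO libraries. Over 7 ratios of 2 genes, these last 3 and that of *B2m* over *H2-K1* had an exact permutation p of 0.1, the smallest possible, and adjusted values of 0.175. With 3 libraries per group no ratio could pass a threshold of 0.05 in this test, so it cannot decide whether they differed. The groups did not overlap in any of these ratios. *H2-Q4* over *H2-K1* (exact permutation p = 0.3), *H2-T22* over *H2-T23* (0.7) and *H2-Q6* over *H2-Q7* (0.9) overlapped between the groups. *H2-Q6* over *H2-Q7* varied more among control libraries, from 0.948 to 1.66, than among Prdm16SMKO libraries, from 1.09 to 1.27. The summed TPM of *H2-Q6* and *H2-Q7* was 12.3, 13.7 and 13 in control and 43.8, 58.2 and 34.9 in Prdm16SMKO replicates 1, 2 and 3, a 3.51-fold difference of the means.

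**Figure D3:**
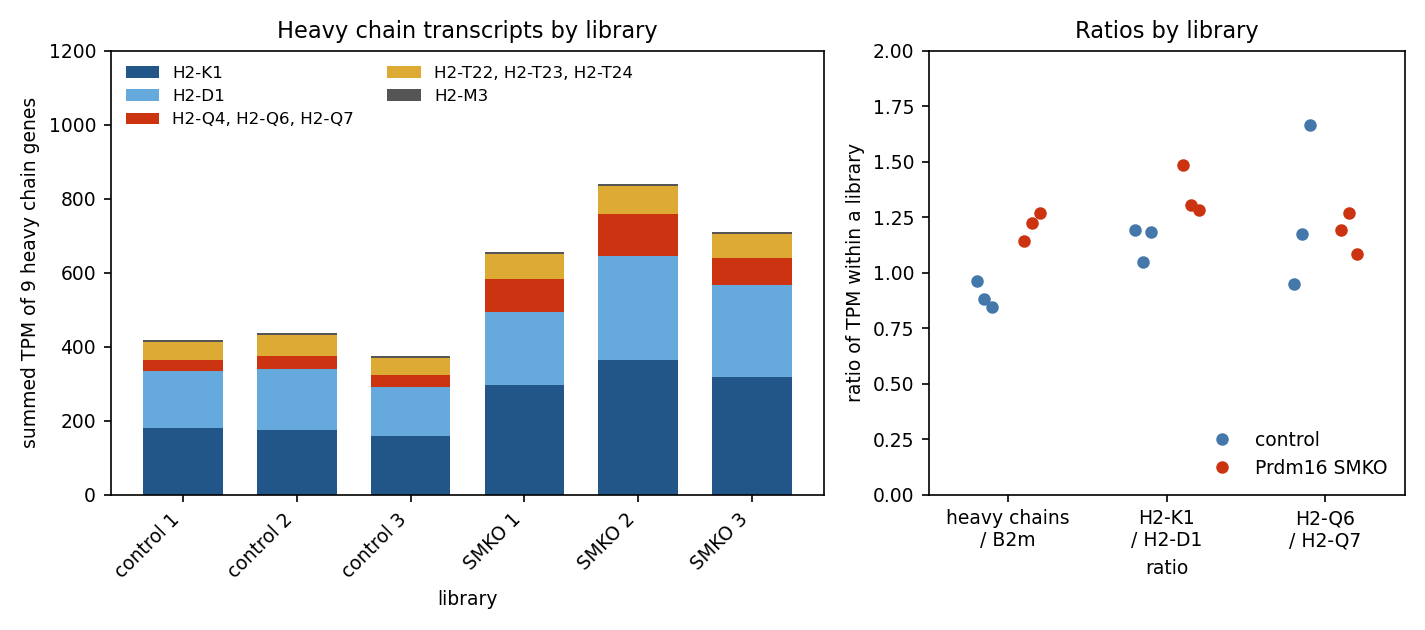
Left, summed TPM of the 9 heavy chain genes in each library, stacked by gene or gene group. Right, ratios of TPM within a library for 3 control (blue) and 3 Prdm16SMKO (red) libraries. The stacks are 374 to 438 TPM high in control and 657 to 840 TPM in Prdm16SMKO libraries, and the heavy chain to *B2m* ratio lies below 1 in all controls and above 1 in all Prdm16SMKO libraries.

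Other class I heavy chain rows of the *H2* complex were at low levels. Of 29 symbols listed, 21 had a row, 11 of these were at 0 TPM in all 6 libraries, and 5 passed the expression minimum. All 5 had positive log2 fold changes, from 0.53 to 1.74, and none was called by limma, with 3 at an unadjusted p under 0.05. *H2-Q10*, whose product is secreted mainly by the liver, was at 2.05, 0.50 and 0.43 TPM in control and at 2.93, 2.51 and 8.06 TPM in Prdm16SMKO replicates 1, 2 and 3 (limma adjusted p = 0.304). *H2-Q5* was at 1.35 to 2 TPM in control and 3.11 to 6.21 TPM in Prdm16SMKO libraries (limma adjusted p = 0.235). Adding all these rows to the 9 heavy chains gave a sum of 416 ± 32.7 TPM in control and 750 ± 94.3 TPM in Prdm16SMKO mice (SD, n = 3 each), and 1.80-fold in place of 1.79-fold.

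Proteins with the class I fold are also encoded elsewhere in the genome. Of 9 such genes 6 were tested, all with positive log2 fold changes and a median of 0.28, and none was called by limma or had an unadjusted p under 0.05, which 1 reached without control replicate 1 or Prdm16SMKO replicate 1. *Mr1*, which presents vitamin B metabolites, was at 20.4 ± 3.38 and 21.4 ± 3.32 TPM (SD, n = 3 each), and *Fcgrt*, the neonatal Fc receptor that also pairs with β2-microglobulin, was at 84.3 ± 14.3 and 91.8 ± 3.82 TPM in control and Prdm16SMKO mice.

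The genes that cut and load class I peptides had unequal fold changes. Of the 5 immunoproteasome genes, 1 was called as higher and 3 had an unadjusted p under 0.05, with a median log2 fold change of 0.58. Of all tested genes 0.184% were called as higher and 4.88% were higher at that unadjusted level. *Psmb8*, which encodes the catalytic subunit LMP7, had a mean of 13.5 ± 1.14 TPM in control that rose to 29.0 ± 3.97 TPM in Prdm16SMKO mice (SD, n = 3 each), with a log2 fold change of 1.07 (limma adjusted p = 0.0416). Its call was kept without Prdm16SMKO replicate 1 and lost in the other 5 fits that left out 1 library, where limma's adjusted p reached up to 0.163 at log2 fold changes of 0.99 to 1.12. *Psmb9* (LMP2) was at 2.75 to 6.49 TPM in control and 7.53 to 7.93 TPM in Prdm16SMKO libraries, and *Psmb10* (MECL-1) at 11.1 to 13.6 and 16.8 to 20.8 TPM. The subunits that these replace in the constitutive proteasome, *Psmb5*, *Psmb6* and *Psmb7*, had log2 fold changes of 0.03, −0.05 and −0.01, and none of the 4 constitutive genes tested was called or had an unadjusted p under 0.05 (limma). Of 8 peptide loading genes none was called, and 1 had an unadjusted p under 0.05 (0 without control replicate 1 or Prdm16SMKO replicate 2, and 2 without control replicate 2), with a median log2 fold change of 0.01. This was *Tap1*, a subunit of the TAP transporter, at 3.84 to 5.14 TPM in control and 6.30 to 7.26 TPM in Prdm16SMKO libraries (limma adjusted p = 0.437). Its partner *Tap2* was at 13.2 to 17.4 and 17.6 to 19.3 TPM (log2 fold change 0.27), and the general chaperones *Calr*, *Canx* and *Pdia3* had log2 fold changes of −0.29, −0.07 and −0.15.

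Of 17 genes for regulators of class I transcription none was called by limma, with a median log2 fold change of 0.13. The number at an unadjusted p under 0.05 was 1 without Prdm16SMKO replicate 2, and 3 without control replicate 2 or Prdm16SMKO replicate 1. With all libraries there were 2. *Irf1*, an interferon-regulated activator, was 1 of them, at 11.1 to 13.04 TPM in control and 15.9 to 17.5 TPM in Prdm16SMKO libraries (log2 fold change 0.45, limma adjusted p = 0.421). *Nlrc5*, the class I transactivator, was at 2.26, 1.25 and 2.10 TPM in control and 4.18, 3.04 and 1.66 TPM in Prdm16SMKO replicates 1, 2 and 3. Its groups overlapped, with a log2 fold change of 0.50 (limma adjusted p = 0.808). The RFX and NF-Y subunit genes, whose products bind the X and Y boxes, had log2 fold changes from −0.43 for *Rfxank* to 0.13 for *Rfxap*.

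**Figure D4:**
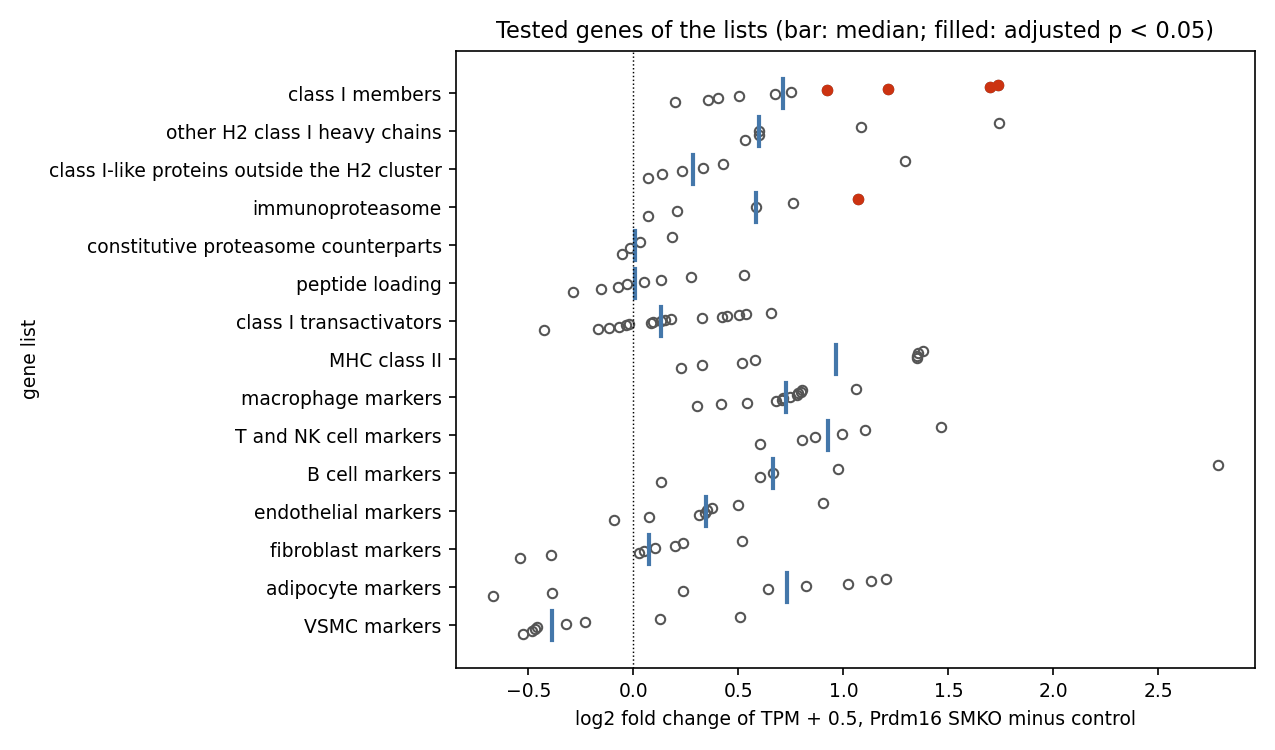
Log2 fold changes of TPM + 0.5, Prdm16SMKO minus control, of each tested gene in 15 lists, with the list median as a blue bar and genes called at an adjusted p under 0.05 filled in red. Filled points are the 4 called class I genes and *Psmb8*, and the medians run from −0.39 for VSMC markers to 0.96 for MHC class II genes.

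The class I genes share their chromosomal interval with other genes. From *H2-K1* to *H2-M3*, over 3.28 Mb, 107 genes were tested. The 84 of them outside the class I, class II, peptide loading and immunoproteasome lists had a median log2 fold change of −0.01, with 41 positive and 43 negative, none called by limma, and 1 higher and 4 lower at an unadjusted p under 0.05, where 3.85% of all tested genes were lower. Without 1 library, 1 to 4 were higher and 4 to 6 lower, the most without control replicate 2, and 1 was called without Prdm16SMKO replicate 3. These 5, named after their values were seen, were *Cfb*, a complement component that was higher (log2 fold change 0.84), and *Hspa1a*, *Hspa1b*, *Hspa1l* and *Ppp1r10*, which were lower (−1.54, −1.45, −0.79 and −1.01). *Hspa1a* and *Hspa1b* are near-identical, so their reads can be placed on either. The 10 genes of class II, peptide loading and the immunoproteasome that lie in the interval all had positive log2 fold changes, with a median of 0.67.

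**Figure D5:**
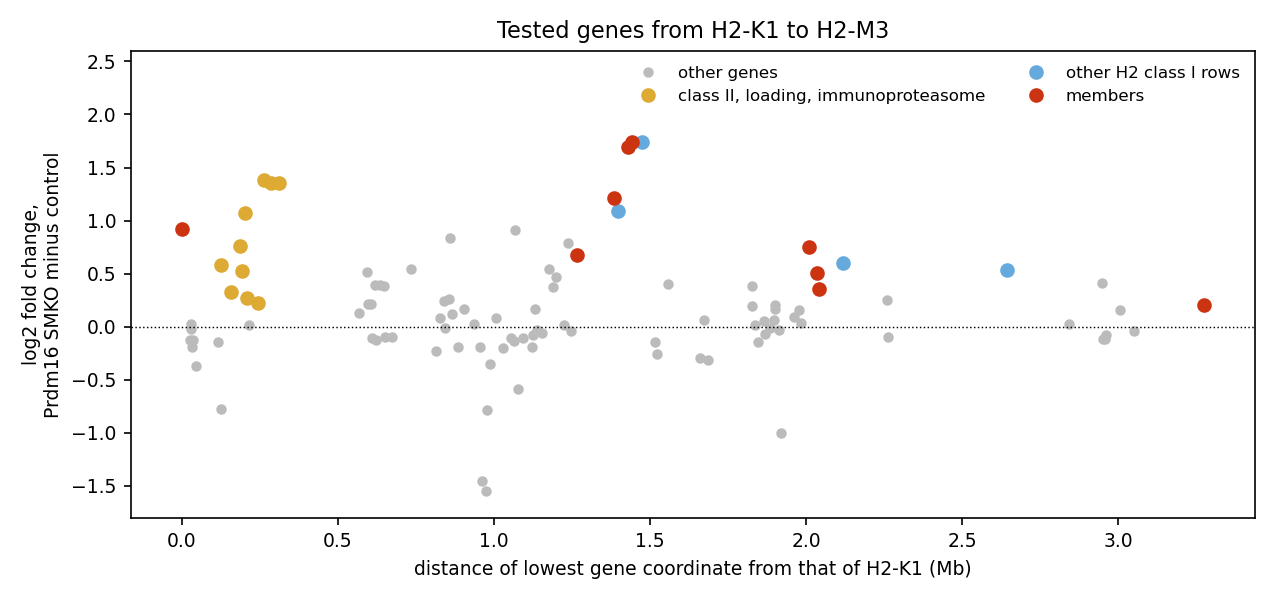
Log2 fold change of each tested gene against the distance of its lowest coordinate from that of *H2-K1*, in Mb, on chromosome 17. Class I members (red), other *H2* class I rows (light blue) and class II, loading and immunoproteasome genes (yellow) lie above 0, while 84 other genes of the interval (gray) scatter around 0.

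Markers of macrophages and antigen-presenting cells also had positive fold changes. None of 12 macrophage markers was called by limma, 7 had an unadjusted p under 0.05, and all 12 had positive log2 fold changes, with a median of 0.73. Of all tested genes, 4.88% were higher at that unadjusted level and 54.2% had a positive log2 fold change. The count of 7 fell to 0 without Prdm16SMKO replicate 2, to 2 without control replicate 3 and to 3 without control replicate 2. It was 5 without Prdm16SMKO replicate 3, and it rose to 10 without Prdm16SMKO replicate 1 and to 8 without control replicate 1. Their summed TPM was 142.8, 123 and 89.5 in control and 143.1, 266 and 199 in Prdm16SMKO replicates 1, 2 and 3. The class I heavy chain sums of the same libraries were 419, 438 and 374 TPM in control and 657, 840 and 711 TPM in Prdm16SMKO mice. Control replicate 1 was thus the highest control for macrophage markers, and control replicate 2 for the heavy chains. *Ptprc*, the pan-leukocyte gene CD45, was at 1.47, 0.63 and 0.60 TPM in control and 1.51, 3.93 and 2 TPM in Prdm16SMKO replicates 1, 2 and 3. MHC class II genes, which mark antigen-presenting cells, had 8 of 10 genes tested, none called by limma, 5 at an unadjusted p under 0.05, and a median log2 fold change of 0.96, with a summed TPM of all 10 of 74.0 to 126 in control and 178 to 342 in Prdm16SMKO libraries. Without Prdm16SMKO replicate 1, 2 class II genes were called. Prdm16SMKO replicate 2 had the highest sums of class I, class II and macrophage genes. It also had the highest sums of the B cell, endothelial and fibroblast markers given below. Those of T and natural killer cell and adipocyte markers were highest in Prdm16SMKO replicate 3.

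Lymphocyte markers were scarce. Of 12 T and natural killer cell markers 6 passed the minimum, with 2 at an unadjusted p under 0.05 and none called by limma. The count of 2 fell to 1 without control replicate 2 or 3 or Prdm16SMKO replicate 2. It rose to 3 without control replicate 1 or Prdm16SMKO replicate 1. The summed TPM of all 12 was 1.90 to 5.30 in control and 8.30 to 12.6 in Prdm16SMKO libraries. *Cd8a*, which defines the T cells that read class I molecules, was at 0, 0.02 and 0 TPM in control and at 0.19, 0.13 and 0.40 TPM in Prdm16SMKO replicates 1, 2 and 3. Of 10 genes for receptors of class I molecules 2 passed the minimum, *Pirb* and *Lilrb4a*, with log2 fold changes of 0.76 and 0.66 and 1 at an unadjusted p under 0.05, which none reached without control replicate 2 or 3 or Prdm16SMKO replicate 2 or 3. Of 8 B cell markers 5 passed the minimum, with 1, the immunoglobulin gene *Igkc*, at an unadjusted p under 0.05 and none called by limma. There were 3 at that level without control replicate 1, and 1 was called without Prdm16SMKO replicate 1. The summed TPM of all 8 was 7.71 to 14.97 in control and 23.4 to 61.7 in Prdm16SMKO libraries, and without *Igkc* the sums were 3.62 to 12.3 and 8.82 to 14.5, which overlapped.

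Endothelial markers summed to 233 to 312 TPM in control and 283 to 492 TPM in Prdm16SMKO libraries, fibroblast markers to 1997 to 2085 and 1496 to 2534 TPM, and adipocyte markers to 540 to 1152 and 487 to 2924 TPM, each with overlapping groups. VSMC markers, which fit the labelled tissue, summed to 14917 to 25276 TPM in control and 11513 to 17648 TPM in Prdm16SMKO libraries, with 2 lower and 1 higher at an unadjusted p under 0.05 and none called by limma. These 3 fell to 0 without control replicate 1 or Prdm16SMKO replicate 2 and to 1 without control replicate 2 or Prdm16SMKO replicate 3. The part of any of these cell types in the class I values was not tested.

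Among 9660 other genes that averaged 5 TPM or more, those whose log2(TPM + 0.5) over the 6 libraries was most like the mean profile of the 10 class I genes were *Lgals9*, *Col14a1*, *Mturn*, *Bok* and *Pcgf5*, with Pearson r from 0.990 to 0.994. The r is a description over 6 libraries in 2 groups, and 55 genes had an r over 0.95. *Lgals9*, which encodes galectin-9, was at 8.76, 10.59 and 8.52 TPM in control and 14.9, 17.6 and 15.1 TPM in Prdm16SMKO replicates 1, 2 and 3 (log2 fold change 0.74, limma adjusted p = 0.141). *Col14a1*, a fibril-associated collagen, was at 46.3 ± 2.604 and 86.7 ± 13.8 TPM (SD, n = 3 each; log2 fold change 0.89, limma adjusted p = 0.0666). None of the 5 genes was called.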

How the data were processed

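Abdominal aortas of 3 control and 3 Prdm16SMKO mice were sequenced as polyadenylated RNA, 151 bp paired-end, with 40 M read pairs per sample on average, per the labels. The submitters' processing notes name cutadapt 2.3, STAR 2.7.8a, RSEM 1.3.3 and the build GRCm38. The authors deposited TPM values, rounded to 2 decimals, in 1 table. The annotation and the depth of single libraries are not given in the sources used here. No 2 libraries were identical.

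The 15775 genes that averaged 0.5 TPM or more were compared on the log2(TPM + 0.5) scale with limma 3.58.1 in R 4.3.3, with a variance trend, no covariates, equal weights and two-sided Benjamini-Hochberg adjusted p-values. The fit was tried on simulated data with independent noise in each gene and library. Such data hold no library-wide differences, so they cannot show how the fit handles them. The alternatives were pseudocounts of 0.1 and 1, no minimum or 2 TPM, 3 other scalings, no variance trend, array weights, a replicate block and each library left out. The members and lists, written from general knowledge, were chosen with earlier results of these data known. All members were named, and other genes by list or, where they averaged 5 TPM or more, by likeness of profile, except where stated. Values of some listed genes are not reported here. Sequences came from RefSeq and GENCODE M21. Tables and figures used Python 3.11.15, pandas 2.3.3, scipy 1.17.1, biopython 1.88 and matplotlib 3.10.9.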

Additional observations from a re-analysis of the deposited data

How the results depend on the processing

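The number of class I genes called was 4 as reported, with 0.355% of all genes called, 3 to 5 (with 0.33% to 3.13% of all genes called) under pseudocounts of 0.1 and 1, a minimum of 2 TPM, 3 other scalings and array weights, 1 with variances without a trend (*H2-Q7*, with 0.209% of all genes called), and 0 with no minimum on mean TPM, where 26559 genes were tested, 0.0377% were called and 8 of the 10 had an unadjusted p under 0.05 (limma). With 1 library left out it ran from 0 to 3. With the replicate number as a block it was 0, where 0.0254% of all genes were called, with 8 of 10 at an unadjusted p under 0.05. The share of all genes at that unadjusted level is not given for the fits with the block or with no minimum. The labels do not say whether replicate numbers pair the libraries. The deviations of same-numbered libraries correlated at −0.13, −0.11 and 0.02 over genes, and those of other pairs at −0.17 to 0.24. With 3 libraries per group these values cannot decide whether the libraries were paired, so the 4 calls hold only for an unpaired comparison. The median log2 fold change of the 10 was 0.71 with the block and without it. The *Psmb8* call was also lost with no minimum (limma adjusted p = 0.119), without a variance trend (0.103) and with the block (0.176). Of the 84 other genes of the chromosome 17 interval, 1 or 2 were called under a minimum of 2 TPM and the 3 other scalings and 5 with array weights. Each of the 10 log2 fold changes stayed positive under all 16 alternatives. The log2 ratio of the summed heavy chain TPM was 0.84 and stayed between 0.74 and 0.92. Scaling moved the median of all genes no further than −0.02 to 0.04. TPM carry no read numbers, so the precision of the least abundant members, *H2-T24* and *H2-M3*, is known only from the spread of 3 libraries per group.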

Other observations

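The immunoglobulin light chain gene *Igkc*, a product of B cells and plasma cells, was at 2.71, 1.74 and 5.37 TPM in control and at 12.3, 47.1 and 22.2 TPM in Prdm16SMKO replicates 1, 2 and 3, a log2 fold change of 2.79 (limma adjusted p = 0.0638). Prdm16SMKO replicate 3 had more adipocyte transcripts than the other libraries, with *Adipoq*, the adiponectin gene, at 182 TPM against 21.5 to 63.3 TPM elsewhere and *Ucp1*, the gene of brown fat thermogenesis, at 170 TPM against 0 to 49.0 TPM. The same library had the highest TPM of *H2-Q10* and of the class I-like lipid-presenting gene *Cd1d1*, 21.9 TPM against 1.48 to 8.13 TPM elsewhere.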
